A study of Mus musculus with 6 samples.

Results

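The D-type cyclins (Ccnd1, Ccnd2 and Ccnd3), the CDK inhibitors Cdkn1a, Cdkn1b, Cdkn1c and Cdkn2c, and the Rb family (Rb1, Rbl1 and Rbl2) were followed in embryonic mouse retinas with and without Onecut1. They were taken by gene symbol and make up 10 of the 18193 genes that have a probe set of their own on the Affymetrix mouse genome array used. Together they have 27 such probe sets, 13 for the cyclins, 6 for the inhibitors and 8 for the Rb family. Of these, 18 averaged over 7 on the log2 scale in WT or OC1-KO retinas, the expression filter of the study's methods, and each of the 10 genes has at least 1 of them. Each gene is described by its brightest probe set that passed the filter, and its other probe sets are given beside it.

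Total RNA from isolated retinas of 3 WT and 3 OC1-KO littermate embryos at E14 was amplified and then hybridized, with 1 array per embryo. OC1-KO embryos lack Onecut1, the gene of a transcription factor needed for horizontal cells, in the whole animal. The line came from R1 embryonic stem cells put into a "Swiss" strain and was then bred to C57Bl/6 over some generations, so that WT and OC1-KO embryos share a mixed background. Neither group received a treatment, and each genotype's embryos are numbered 1 to 3. The labels describe the 2 embryos numbered 3 in other words than the 4 numbered 1 and 2. They do not say what a shared number stands for, so litter, dissection and array run cannot be told apart.

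D-type cyclins bind Cdk4 and Cdk6 in G1 and start the phosphorylation of the Rb proteins, which then release E2F transcription factors and let cells enter S phase. The Cip/Kip inhibitors encoded by Cdkn1a (p21), Cdkn1b (p27) and Cdkn1c (p57) bind cyclin-CDK complexes, whereas the INK4 protein encoded by Cdkn2c (p18) binds Cdk4 and Cdk6 themselves. In the developing retina, cyclin D1 is the main D-type cyclin of dividing progenitors, p27 and p57 take part in cell cycle exit, and the Rb family keeps differentiating cells, horizontal cells among them, from dividing again.

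Median signal ranged from 85.0 (OC1-KO 3) to 104 (OC1-KO 1) on the linear scale, and between 43.4% and 46.7% of the probe sets lay above a log2 signal of 7. The targeted gene Onecut1 read 9.25 (WT 1), 8.76 (WT 2), 9.00 (WT 3), 9.02 (OC1-KO 1), 8.31 (OC1-KO 2) and 9.67 (OC1-KO 3) on the log2 scale. No source used here says how its probes lie relative to the deleted part, so these values do not check the knockout. The retina label was borne out by its markers, since all 7 retinal progenitor genes and all 9 postmitotic neuron genes that have a probe set passed the filter. Of 6 horizontal cell genes, 4 passed it, and Lhx1 and Calb1 lay under 7 on all arrays.

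The embryos numbered 3 stood apart from the others in markers of neighbouring tissues, in both genotypes. The summed linear signal of 12 lens genes was 307 to 505 in embryos 1 and 2 and 11746 to 22312 in embryos 3, and that of 7 red blood cell genes was 75 to 750 against 16587 to 23990. Cryba1, a lens crystallin, measured 12.96 and 11.96 on the log2 scale in WT 3 and OC1-KO 3 and at most 6.77 elsewhere. Results that turn on embryo number are therefore given with these values, and genotype differences are also given within pairs of embryos of the same number. In bulk tissue, fewer cells of a type and less RNA per cell cannot be told apart.

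The first comparison asked whether the loss of Onecut1 altered the expression of these G1 regulators. No member passed the test. With limma and Benjamini-Hochberg adjustment over 20888 probe sets, 0 of the 18 member probe sets had an adjusted p under 0.05, and the share over all probe sets was 0%. At an unadjusted p under 0.05 limma also called 0 of 18, beside 1.01% of all probe sets, and the methods' t-test called 0 of 18, beside 0.986%. WT and OC1-KO values overlapped for all 18. The groups did not overlap for 3.56% of all probe sets, so 0 of 18 is near that share. Over 1 probe set per gene, 5 of the 10 genes were higher and 5 lower in OC1-KO. Their median log2 difference was -0.00, beside -0.01 over all probe sets kept. The summed linear signal of the 6 horizontal cell genes was 4314 to 5105 in WT and 3998 to 4224 in OC1-KO. This sum includes Onecut1 itself, and its brightest members are Ptf1a and Onecut2. In the developing retina the paper places Onecut2 RNA in an area of progenitors and new neurons, so the sum does not read horizontal cells alone. Of the 4 horizontal cell genes that passed the filter, limma called 0 at an unadjusted p under 0.05, and the genotypes overlapped for each. The sum of the 6 genes of cycling cells was 50215 to 66753 in WT and 55113 to 59936 in OC1-KO.

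**Figure D1:**
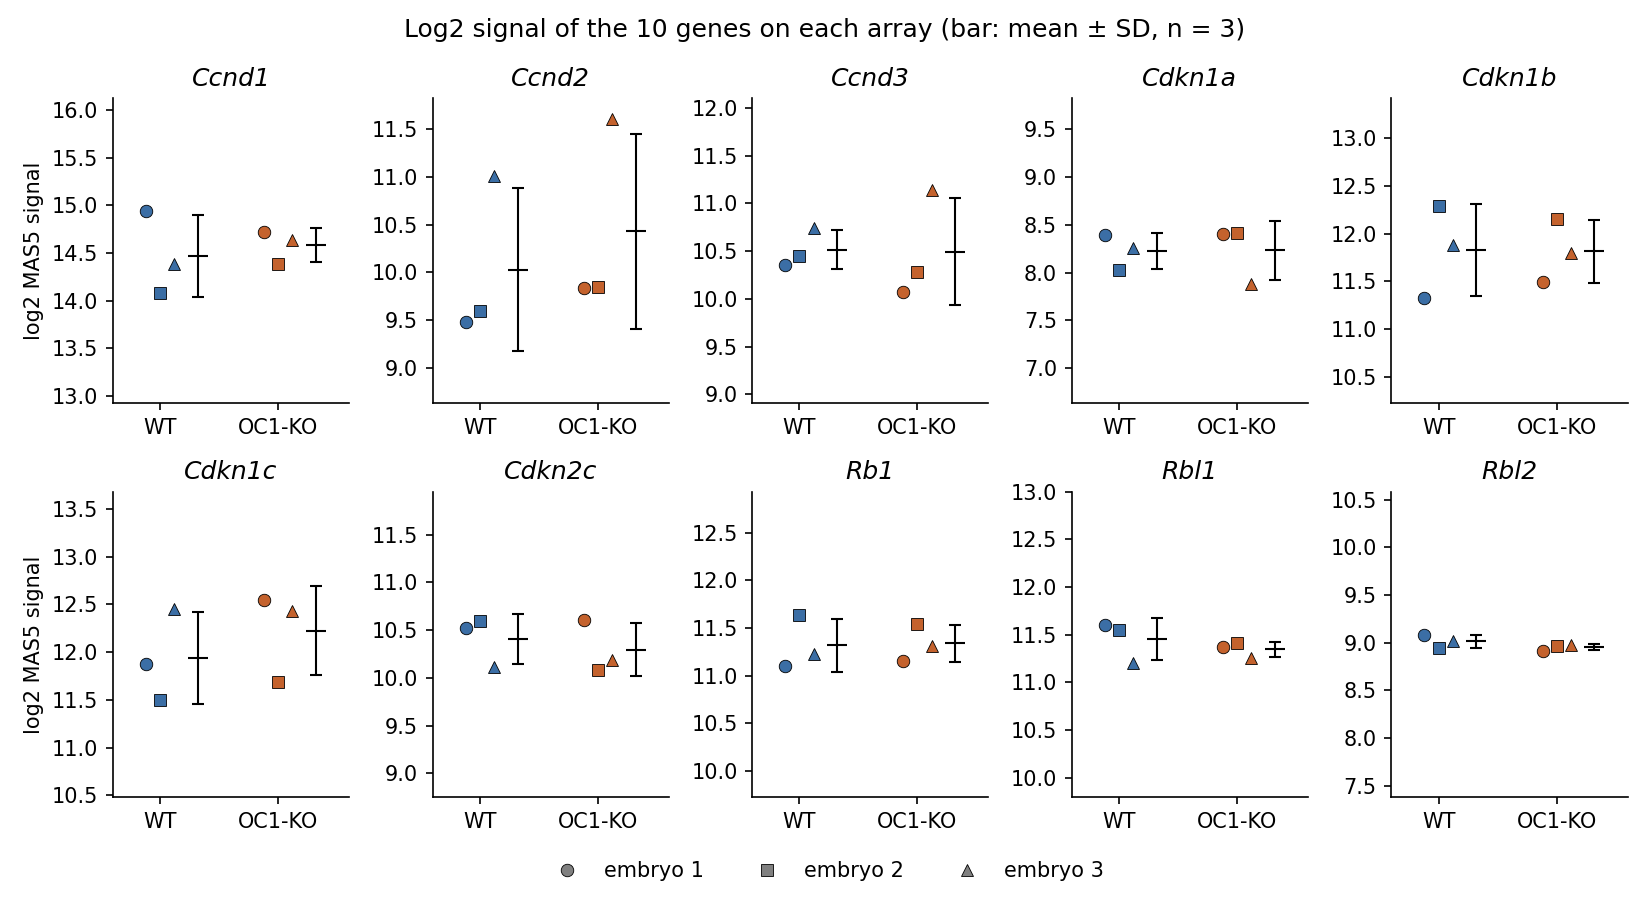
Log2 signal of the 10 genes on each of the 6 arrays, 1 probe set per gene, with the embryo number as point shape and bars for the mean ± SD of each genotype (n = 3). Every gene has overlapping genotypes, and Ccnd2 has both embryos numbered 3, at 11.01 and 11.61, above the other 4 arrays.

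Among the D-type cyclins, Ccnd1, the cyclin D1 gene, had log2 signals in embryos 1, 2 and 3 of 14.94, 14.08 and 14.39 for WT and 14.72, 14.38 and 14.64 for OC1-KO. The highest and the lowest value were both WT, so the OC1-KO values lay inside the WT range. WT averaged 14.47 ± 0.43 and OC1-KO 14.58 ± 0.18 (SD, n = 3 each), a log2 difference of 0.11 with a 95% interval of -0.46 to 0.69. On the linear scale this is a ratio of 1.08, with an interval of 0.726 to 1.61. The other Ccnd1 probe sets differed by 0.09 (1417420_at) and 0.04 (1417419_at). Within pairs of embryos, OC1-KO minus WT was -0.22, 0.30 and 0.25, and the difference was -0.08 without WT 2.

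Ccnd2, the cyclin D2 gene, measured 9.48, 9.59 and 11.01 in the WT embryos and 9.83, 9.85 and 11.61 in the OC1-KO embryos, in the order of their numbers. The embryos numbered 3 were the high ones in each genotype, and the genotypes overlapped. WT averaged 10.03 ± 0.86 and OC1-KO 10.43 ± 1.02 (SD, n = 3 each), which differ by 0.40 on the log2 scale (SE 0.60, interval -1.01 to 1.82). Its adjusted p was 1.00, and the exact two-sided permutation p was 0.5, where 0.1 is the smallest that 3 against 3 arrays allow. The difference was 0.90 without WT 3 and -0.18 without OC1-KO 3.

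Within the pairs, Ccnd2 was higher in OC1-KO by 0.36, 0.26 and 0.60. With the embryo number as a block, the SE of the difference fell to 0.12 and the adjusted p was 0.999. At an unadjusted p under 0.05 the block fit called 3 of the 18 member probe sets, all of Ccnd2 and all higher in OC1-KO, where it called 4.37% of all probe sets and 1.57% as higher. These 3 probe sets share their target and are not separate evidence. The summed linear signal of 8 pigment epithelium genes moved the same way. It went from 389, 355 and 893 in WT embryos 1, 2 and 3 to 550, 664 and 2215 in their OC1-KO counterparts. Of the 8 genes 3 passed the filter, and Tyr, Mlana, Rpe65 and Slc45a2 lay under 7 on all arrays. Among the 3, Pmel and Mitf were higher in OC1-KO in all 3 pairs, and Dct was lower by 0.12 in pair 1 and higher in pairs 2 and 3. The part of these genes in the Ccnd2 difference was not tested. The other 2 kept Ccnd2 probe sets differed by 0.33 (1448229_s_at, lower in OC1-KO in pair 2 by 0.13 on the log2 scale) and 0.37 (1455956_x_at).

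Ccnd3, the cyclin D3 gene, measured 10.36, 10.45 and 10.74 in WT and 10.07, 10.28 and 11.14 in OC1-KO. OC1-KO 3 was the highest array and OC1-KO 1 the lowest, so that the WT values lay between them. The means were 10.52 ± 0.20 and 10.50 ± 0.57 (SD, n = 3 each), a log2 difference of -0.02 with an interval of -0.71 to 0.67. Its probe sets 1444323_at and 1438805_at were below the filter, as were 2 of Ccnd2 (1416123_at and 1416124_at).

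**Figure D2:**
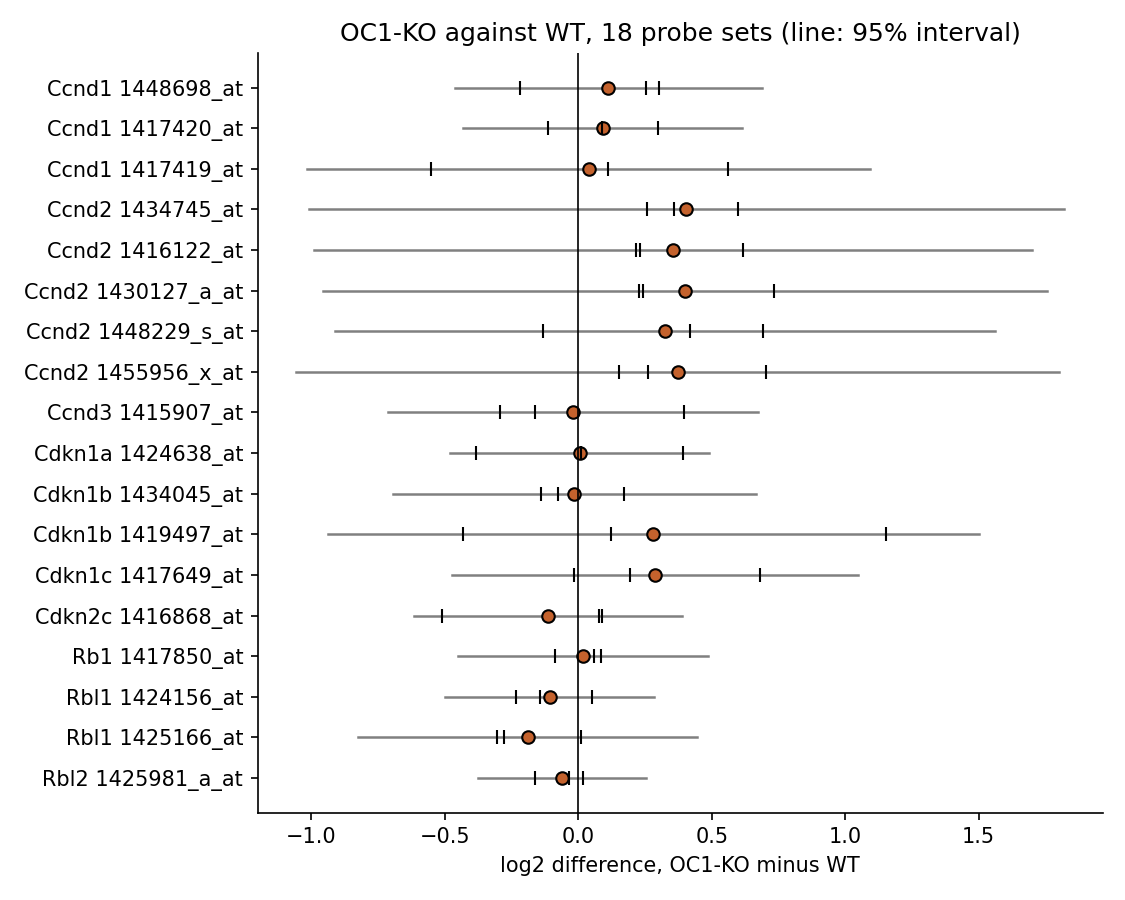
OC1-KO minus WT on the log2 scale for the 18 member probe sets that passed the filter, with points for the difference, lines for its 95% interval from limma and black ticks for the 3 pairs of embryos. All intervals include 0, from Rbl1 1425166_at at -0.19 to Ccnd2 1434745_at at 0.40.

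Among the Cip/Kip inhibitors, Cdkn1a, a target gene of p53, had log2 signals in embryos 1, 2 and 3 of 8.40, 8.03 and 8.26 for WT and 8.40, 8.42 and 7.88 for OC1-KO. The extremes of the range were OC1-KO 2 and OC1-KO 3. The means were 8.23 ± 0.19 and 8.23 ± 0.31 (SD, n = 3 each), a log2 difference of 0.01 with an interval of -0.48 to 0.49. A further probe set, 1421679_a_at, was below the filter.

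Cdkn1b, whose product p27 holds cyclin E-Cdk2 in check, measured 11.32, 12.29 and 11.88 in WT and 11.50, 12.15 and 11.80 in OC1-KO. Embryos 1 were the lowest and embryos 2 the highest in each genotype. The means were 11.83 ± 0.48 and 11.82 ± 0.33 (SD, n = 3 each), a log2 difference of -0.02 with an interval of -0.70 to 0.67. Its dimmer probe set, 1419497_at, differed by 0.28 with an SE of 0.51, and its pairs gave 1.15, 0.12 and -0.43.

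Cdkn1c, the p57 gene, had the widest genotype difference among the 4 inhibitors described by their brightest probe set. It measured 11.87, 11.50 and 12.45 in WT and 12.55, 11.69 and 12.44 in OC1-KO. OC1-KO 2 lay below WT 1 and WT 3, so the groups overlapped. The means were 11.94 ± 0.48 and 12.22 ± 0.47 (SD, n = 3 each), a ratio of 1.22 with an interval of 0.719 to 2.07. Pairs 1 to 3 gave log2 differences of 0.68, 0.19 and -0.01, and the difference ranged from 0.06 to 0.55 when single arrays were left out.

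Cdkn2c, the INK4 member, measured 10.52, 10.59 and 10.11 in WT and 10.61, 10.08 and 10.19 in OC1-KO. The lowest and highest arrays were both OC1-KO. The means were 10.41 ± 0.26 and 10.29 ± 0.28 (SD, n = 3 each), a log2 difference of -0.11 with an interval of -0.62 to 0.39.

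Of the Rb family, Rb1, the retinoblastoma gene, had log2 signals in embryos 1, 2 and 3 of 11.10, 11.63 and 11.22 for WT and 11.16, 11.54 and 11.31 for OC1-KO. Embryos 2 were the highest in each genotype. The means were 11.32 ± 0.28 and 11.34 ± 0.19 (SD, n = 3 each), a log2 difference of 0.02 with an interval of -0.45 to 0.49. Its pairs differed by no more than 0.0895 in either direction, which is less than the spread among embryos of either genotype.

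Rbl1, which encodes p107 and is itself a known E2F target, measured 11.61, 11.55 and 11.20 in WT and 11.37, 11.41 and 11.25 in OC1-KO. WT 3 was the lowest array and WT 1 the highest. The means were 11.45 ± 0.22 and 11.35 ± 0.08 (SD, n = 3 each), a log2 difference of -0.11 with an interval of -0.50 to 0.28. On the dimmer probe set 1425166_at the difference was -0.19 with an SE of 0.27, and 1432604_at and 1454293_at were below the filter.

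Rbl2, the p130 gene, which is known for its part in quiescent cells, varied least over the 6 arrays among the 10 genes. It measured 9.08, 8.95 and 9.01 in WT and 8.91, 8.96 and 8.98 in OC1-KO, a range of 0.164. WT 1 was the highest and OC1-KO 1 the lowest, and the groups overlapped. The means were 9.01 ± 0.07 and 8.95 ± 0.03 (SD, n = 3 each), a log2 difference of -0.06 with an interval of -0.38 to 0.26. The ranges of the other genes went from 0.404 (Rbl1) to 2.13 (Ccnd2). Rb1 probe set 1444400_at and Rbl2 probe set 1418146_a_at were below the filter.

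Promoter windows from RefSeq (build GRCm38.p6, 250 bases before to 50 after the start) were found for 6 of the 10 genes, 9 windows in all, Ccnd1, Ccnd2, Cdkn1c and Rb1 having none in the table. Since the Rb family acts through E2F, the windows were searched on both strands for the E2F letters TTTCCCGC, TTTCGCGC, TTTGCCGC and TTTGGCGC. Of the 9 windows 1 held them, that of Rbl1, as did 2.26% of all 32851 windows. The GC box letters GGGCGG, on either strand, were in 7 of the 9 and in 35.7% of all windows. A match describes letters, not a bound site. The Rbl1 window (chr2:157204485-157204784, minus strand) is shown because it is the member window with E2F letters, in capitals, whose first base lies 18 bases before the start. That of Cdk2 (chr10:128705002-128705301, minus strand), the kinase gene called by embryo number among the other G1 to S genes, has them on the opposite strand, where GCGGGAAA is their complement.
Rbl1: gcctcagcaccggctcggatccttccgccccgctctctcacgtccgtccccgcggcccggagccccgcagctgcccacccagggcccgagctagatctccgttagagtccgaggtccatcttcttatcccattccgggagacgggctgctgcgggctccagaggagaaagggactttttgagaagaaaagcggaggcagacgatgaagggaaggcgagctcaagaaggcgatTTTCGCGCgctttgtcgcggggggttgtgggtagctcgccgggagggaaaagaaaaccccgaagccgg
Cdk2: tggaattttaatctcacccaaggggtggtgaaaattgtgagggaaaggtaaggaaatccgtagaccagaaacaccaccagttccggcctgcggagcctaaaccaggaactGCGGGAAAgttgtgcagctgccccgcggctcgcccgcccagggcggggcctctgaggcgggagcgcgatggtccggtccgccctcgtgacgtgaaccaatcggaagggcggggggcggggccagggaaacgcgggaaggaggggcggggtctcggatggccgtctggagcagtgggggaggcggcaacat

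The second comparison asked how the members varied with embryo number, which crosses both genotypes. Ccnd2 was the member gene called, and its 2 embryos numbered 3 were higher than the other 4 on all 5 kept probe sets. In a fit of genotype plus embryo number, the F-test for number called 5 of the 18 member probe sets at an adjusted p under 0.05. All were of Ccnd2 and higher in embryos 3, beside 5.32% of all probe sets called, 2.09% as higher and 3.23% as lower in embryos 3. Counted by gene this is 1 of 10. At an unadjusted p under 0.05 the F-test called 13 of the 18, or 5 of the 10 genes (Ccnd2, Ccnd3, Cdkn1b, Cdkn1c and Rb1) on their brightest probe set, where it called 31.9% of all probe sets.

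The Ccnd2 log2 signal was 1.62 higher in embryos 3 than in embryos 1 and 2, with an SE of 0.13 and an interval of 1.29 to 1.95, which is 3.08-fold. The adjusted p of the F-test was 0.0399. Embryos 1 and 2 differed by 0.06. Over the 5 kept probe sets the fold ranged from 2.52 (1448229_s_at) to 3.08, with adjusted p from 0.0399 to 0.0467. The difference was 1.48 in WT and 1.77 in OC1-KO.

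**Figure D3:**
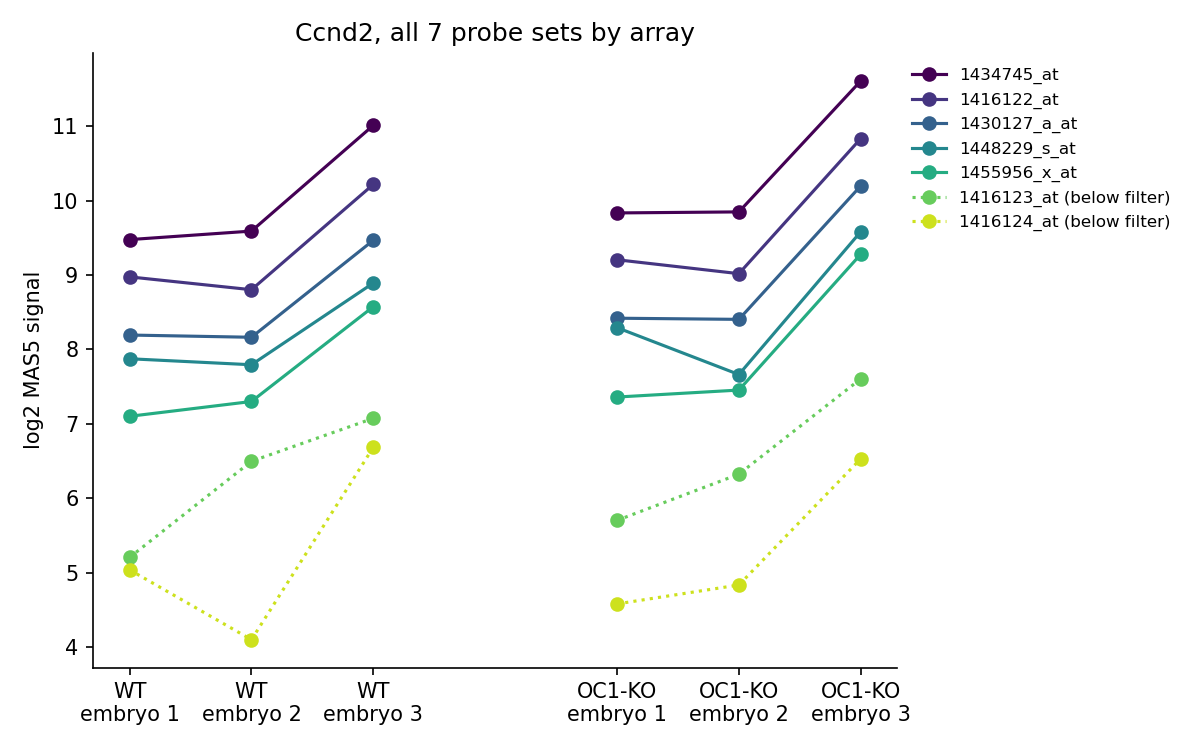
Log2 signal of the Ccnd2 probe sets on each array, WT on the left and OC1-KO on the right, with dotted lines for those below the filter. On each of the 5 probe sets that passed the filter, the 2 embryos numbered 3 lie above the other 4 arrays.

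Markers of tissues next to the retina moved with this result, and their part in it was not tested. Beside the lens and red blood cell sums given above, 10 of 12 lens genes and 5 of 7 red blood cell genes were higher in both embryos 3 than in the other 4. In the lens list Crygs, Mip, Bfsp1 and Bfsp2 lay under 7 on all arrays, as did Hba-a1 and Epb42 among the red blood cell genes. The sum of 7 periocular mesenchyme genes was 440.0 to 681 in embryos 1 and 2 and 2405 to 2851 in embryos 3, with 6 of 7 genes higher and Col1a1, Foxc1 and Twist1 under 7 on all arrays. That of 8 pigment epithelium genes was 355 to 664 against 893 to 2215, with 6 of 8 higher and Tyr, Mlana, Rpe65 and Slc45a2 under 7.

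The summed signal of 7 progenitor genes was 40035 to 47098 in embryos 1 and 2 and 46863 to 53232 in embryos 3. For 6 genes of cycling cells, Pcna and Top2a the brightest, it was 50215 to 66753 against 51382 to 59936. For 9 neuron genes it was 71895 to 89467 against 89526 to 95639. Endothelium genes summed to 1592 to 2433 against 1498 to 1569, with Pecam1, Cdh5 and Tek under 7 on all arrays. The 2 endothelium genes that passed the filter went opposite ways. Kdr, the brighter, was lower in embryos 3 by 0.58 on the log2 scale, and Cldn5 was higher by 0.52. Macrophage genes summed to 904 to 1068 against 1130 to 1254, with Aif1 under 7. The log2 ratio of 3' to 5' Actb control probe sets, a sign of RNA integrity, was 0.656 and 0.446 in WT 3 and OC1-KO 3 and 0.759 to 1.11 in the others.

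The Ccnd2 call rested on few arrays. It was lost in each fit that left out WT 2, WT 3, OC1-KO 1, OC1-KO 2 or OC1-KO 3, with adjusted p from 0.0554 to 0.171, while the difference stayed between 1.48 and 1.77. Each such fit has 1 residual degree of freedom. Without a filter on low signal the adjusted p was 0.349.

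Ccnd1 was highest in embryos 1 on its brightest probe set and was not called by embryo number. On the brightest probe set the means of embryos 1, 2 and 3 were 14.83, 14.23 and 14.51, so that embryos 3 differed from the others by -0.02 with an SE of 0.16. All 3 Ccnd1 probe sets were lowest in embryos 2 by their means, and 1417419_at was higher in embryos 3 by 0.84, with an interval of 0.24 to 1.45. Their adjusted p in the F-test was 0.0921 to 0.159, so none was called. For the brightest it was 0.498 after quantile normalization. Pcna, a cycling cell gene of like brightness, had the same order of embryos as that probe set, at 14.57, 14.04 and 14.24. Ccnd3 was highest in both embryos 3, by 0.65 with an interval of 0.20 to 1.10, and had an adjusted p of 0.130 in the F-test.

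Of the inhibitors, Cdkn1b had the mean 11.41 in embryos 1, 12.22 in embryos 2 and 11.84 in embryos 3. Its adjusted p in the F-test was 0.0677. The other Cdkn1b probe set, 1419497_at, went the opposite way between embryos 1 and 2, at -0.92 against 0.81, so the probe sets of this gene disagree. That probe set is near the filter of 7. Its embryos 2 read 6.65 (WT) and 6.77 (OC1-KO), and its embryos 1 read 7.05 and 8.20. Cdkn1c had the means 12.21, 11.59 and 12.44 in embryos 1, 2 and 3, so embryos 2 were the low ones, and OC1-KO 1 was the highest array. Embryos 3 lay 0.54 above the mean of embryos 1 and 2, with an interval of 0.10 to 0.98. The adjusted p was 0.0995 in the F-test. Cdkn1a differed by -0.24 and Cdkn2c by -0.30, with adjusted p of 0.498 and 0.337.

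In the Rb family, Rbl1 was lowest in both embryos 3, with a log2 difference of -0.26 and an interval of -0.57 to 0.06 on its brightest probe set. On 1425166_at the difference was -0.63, with an interval of -0.95 to -0.30. The adjusted p of that probe set was 0.0797 in the F-test and 0.0467 in the contrast of embryos 3 against embryos 1 and 2, which called 6 of the 18 member probe sets and 9.63% of all. The other 5 were those of Ccnd2. Rb1 differed by -0.09 and Rbl2 by 0.02, with adjusted p of 0.145 and 0.960 in the F-test.

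**Figure D4:**
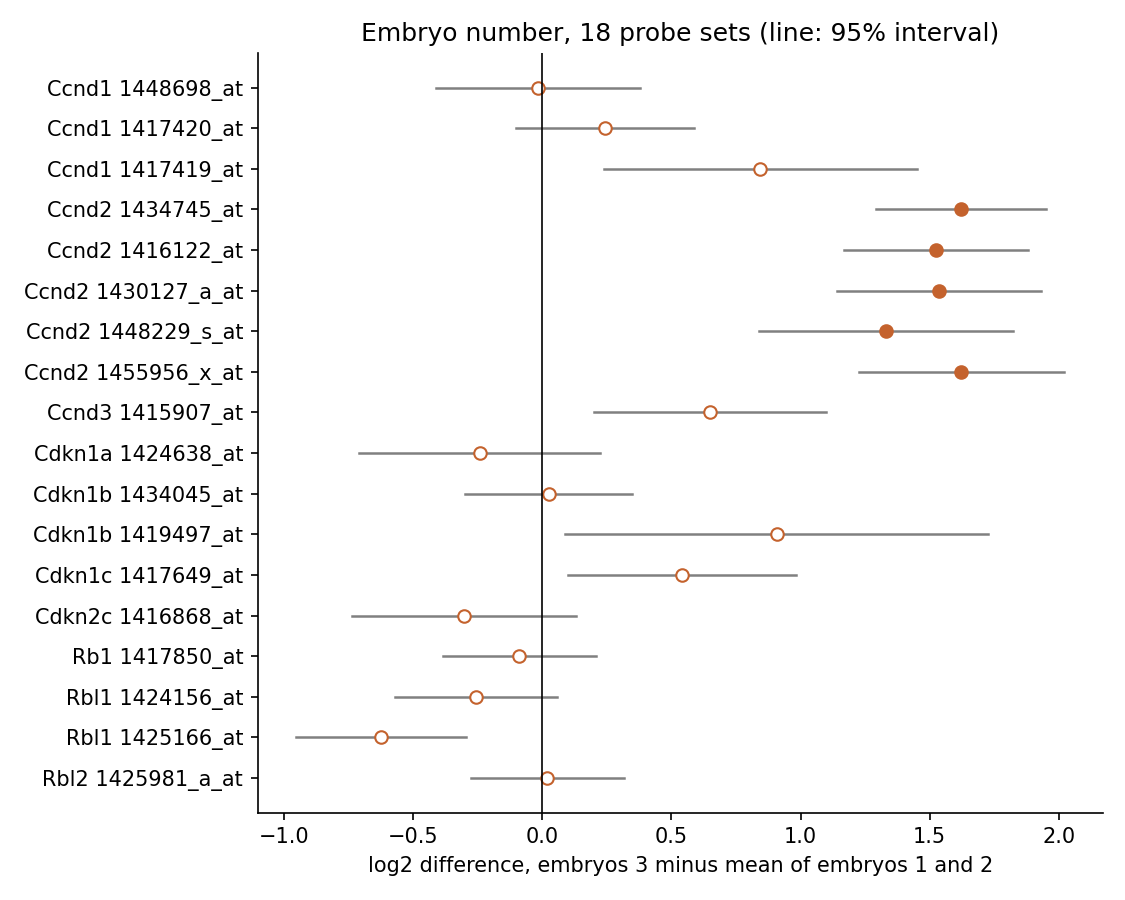
Difference of the embryos numbered 3 from those numbered 1 and 2 on the log2 scale for the 18 member probe sets that passed the filter, with 95% intervals from the fit of genotype plus embryo number and filled points where the F-test called. The 5 Ccnd2 probe sets lie at 1.33 to 1.62, and Rbl1 1425166_at lies at -0.63.

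Whether the difference of embryos 3 was unlike in WT and OC1-KO was tested by an interaction term. It called 0 of the 18 member probe sets after adjustment, as of all probe sets (0%), and 0 at an unadjusted p under 0.05, beside 2.92% of all. For Ccnd3 the difference was 0.34 in WT and 0.96 in OC1-KO, and for Cdkn1a 0.05 and -0.54, both with an adjusted p of 1.00. With 1 embryo numbered 3 per genotype, a difference of this kind could be seen only if it was large against the spread of embryos 1 and 2.

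Other genes of the G1 to S transition were read from 7 lists of 44 genes, of which 43 have a probe set of their own and 40 passed the filter. Between genotypes 14 were higher and 26 lower in OC1-KO, beside 9968 higher and 10920 lower among all probe sets kept, and this count was not tested. Limma called 0 of the 40 after adjustment and 0 at an unadjusted p under 0.05. With the embryo number as a block, 1 of the 40 passed an unadjusted p under 0.05, beside 4.37% of all probe sets, so the count is no result about these genes. It was Lin9, a subunit of the MuvB complex that binds p107 and p130. Lin9 was lower in all 3 pairs, at -0.65, -0.36 and -0.27 on the log2 scale, with an adjusted p of 0.999 in the block fit. The genotypes did not overlap for 2 of the 40 genes, E2f8, an E2F repressor (-0.30, SE 0.16), and Mycl (-0.17, SE 0.13), both named after their values were seen. This count is near the 3.56% of all probe sets whose genotypes did not overlap.

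The kinase Cdk4, the partner of the D-type cyclins, averaged 12.55 ± 0.28 for WT and 12.72 ± 0.17 for OC1-KO (SD, n = 3 each), and Ccna2, the cyclin A2 gene, differed by -0.06. Tfdp1 and Tfdp2, the dimer partners of E2F proteins, differed by -0.13 and 0.14. Of the other INK4 genes, Cdkn2a and Cdkn2b were below the filter and Cdkn2d differed by 0.14. Skp1 and Cks1b, parts of the ubiquitin ligase that marks p27 for degradation, differed by 0.03 and -0.01. The p53 target Gadd45a differed by -0.03 and Trp53inp1 by -0.05, Rbbp4 and Dyrk1a of the MuvB list by -0.03 and -0.07, and Mycn by -0.05. None of these differences passed the test.

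By embryo number, 1 of the 40 genes was called by the F-test, fewer for their number than the 5.32% called of all probe sets. It was Cdk2, the kinase bound by cyclins E and A and by the Cip/Kip inhibitors. It measured 10.59, 10.59 and 9.43 for WT and 10.38, 10.37 and 9.51 for OC1-KO in embryos 1, 2 and 3. The embryos numbered 3 were the low ones in each genotype. The difference was -1.01 with an SE of 0.13, or 2.01-fold lower, with an adjusted p of 0.0424. As with Ccnd2, the call was lost without WT 2, WT 3, OC1-KO 1, OC1-KO 2 or OC1-KO 3, with adjusted p from 0.0599 to 0.171 and differences from -1.15 to -0.86, and without a filter on low signal, with an adjusted p of 0.352. The lens, red blood cell and mesenchyme sums were higher in embryos 3, as Ccnd2 was, whereas Cdk2 was lower there. Their part in the Cdk2 difference was not tested either.

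At an unadjusted p under 0.05 the F-test called 13 of the 40 genes, close to the 31.9% of all probe sets, so the genes named here show no more than their own values. E2f1 was higher in embryos 3, at 0.60, and Tfdp2 lower, at -0.60. Fbxw7, the ubiquitin ligase subunit that recognises cyclin E, was lower, at -0.68. Their adjusted p in the F-test was 0.0708, 0.0641 and 0.0618, so none of them was called by it. In the contrast of embryos 3 against embryos 1 and 2 their adjusted p was 0.0426, 0.0399 and 0.0342. That contrast called 4 of the 40 genes, near the 9.63% of all probe sets that it called. Max, the partner of Myc proteins, was 0.67 higher, and Mdm4 and Mdm2, the p53 inhibitors, differed by -0.53 and -0.45, with adjusted p of 0.0927, 0.130 and 0.153 in the F-test. E2f2 differed by 0.39, and in the MuvB list Lin37 and Mybl2, the B-Myb gene, differed by 0.53 each and Lin9 by -0.15, with adjusted p of 0.139, 0.0874, 0.0941 and 0.122. Cdkn2d, the INK4 gene that passed the filter beside Cdkn2c, differed by 0.28 and did not pass an unadjusted p under 0.05.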

How the data were processed

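Retinas of 3 WT and 3 OC1-KO embryos were measured on 1-colour Affymetrix arrays. The deposited values are MAS5 signal intensity on a linear scale, which the authors scaled to a 2% trimmed mean of 500 on each array. No MAS5 version or genome build is given in the sources used here. Log2 was taken of the deposited intensity without further scaling, 64 control probe sets of 45101 were left out, and 20888 with a mean log2 signal over 7 in either genotype were kept. Of all probe sets 34945 carry 1 gene symbol, 932 several and 9160 none, and 34741 were matched to RefSeq by Entrez ID. Some listed genes are not reported here.

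Genotypes were compared by limma 3.58.1 in R 4.3.3 (lmFit, eBayes without trend) with Benjamini-Hochberg adjustment at 0.05, and embryo number by a moderated F-test with genotype in the fit. Intervals are 95% intervals for single probe sets. Both fits were tested on simulated data. The data simulated for the genotype fit held no effect of embryo number, unlike the real arrays, so that test does not cover such an effect. Figures were drawn with matplotlib 3.10.9 and pandas 2.3.3 in Python 3.11.15. The members, the lists, the tests and the rule for naming genes were chosen with earlier results of these data known. From each list of other genes, the rule takes those with an adjusted p under 0.05, at most 4, otherwise those with an unadjusted p under 0.05, otherwise the 2 brightest.

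Alternatives were quantile normalization, log2(signal + 16), no filter or a filter at 8, an intensity trend, the methods' t-test, embryo number as a block, embryos 1 and 2 alone, and leaving out each array. The embryo numbers paired the arrays by their values: deviations from the genotype means correlated at 0.509, 0.575 and 0.671 for equal numbers and at -0.438 to -0.0371 for unequal ones. Such deviations cancel out within a genotype, so the negative values for unequal numbers are not separate evidence of pairing. No 2 arrays were identical. The number of arrays limits the precision, since p-values rest on 3 embryos per genotype.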

Additional observations from a re-analysis of the deposited data

How the results depend on the processing

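Between genotypes, 0 member probe sets were called after adjustment under all 14 alternatives, the methods' t-test among them. With the replicate block that pairs embryos of the same number, 3 member probe sets, all of Ccnd2, had an unadjusted p under 0.05, against 0 without it, and the block changed no adjusted call. The median over the 10 genes ranged from -0.04 to 0.08. Of 130 single-gene genotype differences under alternatives, 16 changed sign, and the cause was not tested. Leaving out single arrays gave -0.0815 to 0.347 for Ccnd1, -0.185 to 0.897 for Ccnd2, -0.341 to 0.194 for Ccnd3, -0.0947 to 0.185 for Cdkn1a, -0.269 to 0.214 for Cdkn1b and -0.0919 to 0.176 for Rb1. In embryos 1 and 2 alone Cdkn1b was at 0.0157 and Rb1 at -0.0148. By embryo number, 5 member probe sets were called, but 0 without a filter on low signal, 10 with an intensity trend, and 0 to 5 when single arrays were left out. Only leaving out WT 1 kept the count at 5. Over all probe sets the count was 1111, and 0 without a filter, 2308 with a filter at 8, 4106 with a trend, 2012 in the contrast of embryos 3 against the others, and 0 to 1544 when single arrays were left out. With a trend Ccnd3, Cdkn1b, Cdkn1c and Rb1 were also called, at adjusted p of 0.0319, 0.00817, 0.0185 and 0.0389, and with a filter at 8 Cdkn1b at 0.0339. The adjusted p of Ccnd2 ranged from 0.000927 with a trend to 0.349 without a filter. Differences of embryos 3 that changed sign when single arrays were left out were those of Ccnd1 (-0.140 to 0.108), Cdkn1a (-0.536 to 0.0487), Cdkn1b (-0.0456 to 0.0941) and Rbl2 (-0.0202 to 0.0571), and Cdkn1b was at -0.0255 after quantile normalization. Alternatives for the interaction, the lists of other genes and Cdk2 were chosen after seeing the data. The interaction called 0 members under quantile normalization and log2(signal + 16), and the lists had 0 genotype calls under all 13. By embryo number the lists had 1 call, Cdk2, against 0 without a filter, 6 with a filter at 8, 8 with a trend and 0 to 1 when single arrays were left out, 1 only without WT 1. Signal over background limits the 9 member probe sets below the filter.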
